A study of Homo sapiens with 9 samples.

Results

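The machinery that carries a cell through the G1 phase of its cycle was followed through 10 genes: the D-type cyclins CCND1, CCND2 and CCND3, their kinases CDK4 and CDK6, the inhibitors CDKN1B, CDKN2A, CDKN2B and CDKN2C, and RB1. They were chosen by gene symbol for their role, and their rows were taken from a table of read counts for 15983 genes in 9 RNA-seq libraries. Of the 10 genes, 9 had a row and 8 passed the filter on low counts and were tested. CDKN2B was not analysed here, and CDKN2A was removed by the filter.

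The libraries came from KGN cells, an established line from a human granulosa cell tumour that stands in for the steroid-producing cells of the ovarian follicle, with the genotype given as WT. Cells grown in DMEM with 10% fetal bovine serum were fasted for 12 h and then kept for 72 h in solvent (control, 3 libraries), in 0.5 µg/ml insulin (lower dose, 3 libraries) or in 1 µg/ml insulin (higher dose, 3 libraries). All 9 libraries thus share the line, the fast and the duration, and the labels do not say whether serum was present during treatment. The question put by the design is what insulin at either dose does to the transcripts of these cells. Separate cultures are not stated for the libraries of a group, so every p-value is measured against a spread that may be no more than technical.

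In G1, mitogens raise D cyclins, which bind CDK4 or CDK6 and start the phosphorylation of the retinoblastoma protein, encoded by RB1. Phosphorylated RB1 protein releases E2F transcription factors, which switch on genes for DNA replication. The INK4 proteins (from CDKN2A, CDKN2B, CDKN2C and CDKN2D, the last not among the genes followed) block CDK4 and CDK6 directly. The p27 protein (from CDKN1B) chiefly blocks the cyclin E and CDK2 complex of the following step. Insulin acts on this circuit in many cell types through PI3K and AKT, which favour D cyclin synthesis and stability and keep FOXO factors, inducers of CDKN1B, out of the nucleus. Much of this control is exerted on protein, which these libraries do not measure.

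Library totals ran from 18965722 to 20446405 counts, and the common biological coefficient of variation was 5.39%. A count of 0 allows up to 3 counts, or between 0.147 and 0.158 CPM by library (CPM is the count scaled by the library total), a limit that covers counting error only. The granulosa genes FOXL2 (26.2 ± 2.001 CPM), FSHR (18.1 ± 2.48 CPM), STAR and CYP19A1 were present (SD over 9 libraries), while INHA stood at 0.656 CPM. The summed level of the 6 granulosa markers lay between 83.8 and 105 CPM in control, 89.8 and 93.1 CPM at the lower dose, and 86.6 and 106 CPM at the higher dose. Keratin 18, an epithelial marker, was abundant at 1755 CPM in this tumour line, whereas EPCAM had 7 counts in all 9 libraries together. The theca genes CYP17A1 and INSL3 had 1 count each, and the erythroid gene HBB had 1 count. The endothelial genes were mixed, with 3 counts for CDH5, 53 for PECAM1 and 228 for VWF, but 18.3 ± 1.32 CPM for KDR. Of the scarce markers, INHA and PTPRC had an unadjusted p under 0.05 for the higher dose against control, where 2.35% of all tested genes did. Over the 3 groups the unadjusted p was 0.0405 for INHA and 0.058 for PTPRC (edgeR quasi-likelihood test), and neither was called. INHA averaged 0.400 CPM in control, 0.686 CPM at the lower dose and 0.881 CPM at the higher dose (edgeR adjusted p = 1 for the higher dose against control). PTPRC, a marker of white blood cells, averaged 1.49, 1.52 and 2.36 CPM in that order of dose (edgeR adjusted p = 1 for the higher dose against control). Their part in the results below was not tested.

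Levels between genes were compared as FPKM, which divides by gene length. On that scale CCND1 dominated the D cyclins of KGN cells and CDK4 the kinases, and CDKN2C far exceeded CDKN2A, in every library. CCND1 (cyclin D1) led with 101 ± 7.29 FPKM over the 9 libraries (SD), between 88.5 and 108 FPKM. CDK4, the kinase of cyclin D, followed at 56.7 ± 3.11 FPKM. The p27 gene CDKN1B stood at 24.1 ± 1.44 FPKM and CDKN2C, which encodes the INK4 inhibitor p18, at 22.3 ± 1.72 FPKM. CCND3 (cyclin D3) had 15.8 ± 1.07 FPKM and RB1, whose protein CDK4 and CDK6 phosphorylate, 15 ± 0.884 FPKM. CDK6, the other cyclin D kinase, had 8.39 ± 0.453 FPKM. At the bottom, CCND2 (cyclin D2) reached at most 0.0991 FPKM and CDKN2A (p16 and ARF) at most 0.0538 FPKM. The order was the same in all 9 libraries at 5 of the 8 steps between neighbours. The exceptions were CDKN1B over CDKN2C, which held in 7 of 9 libraries, CCND3 over RB1, in 6 of 9, and CCND2 over CDKN2A, in 6 of 9.

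**Figure D1:**
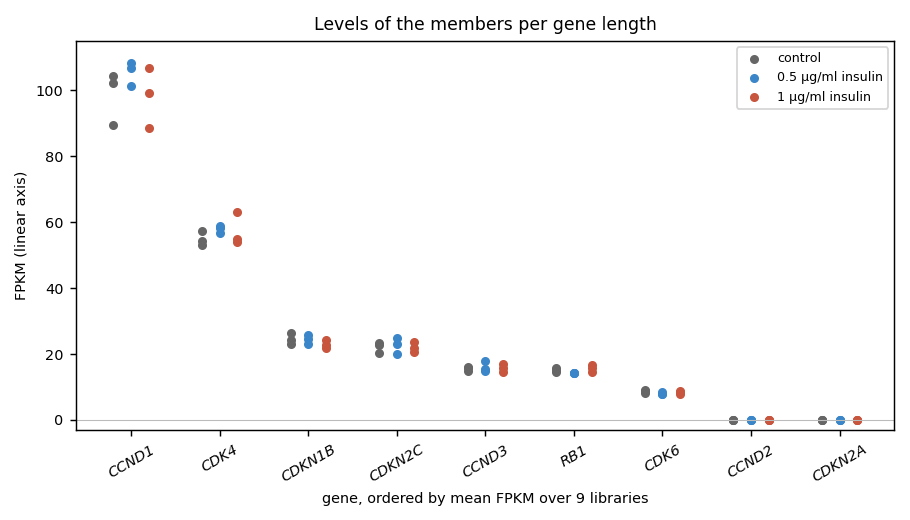
Levels of the 9 analysed genes as FPKM on a linear axis, 1 point per library, coloured by group and ordered by the mean over 9 libraries. CCND1 lies between 88.5 and 108 FPKM and CDK4 between 52.9 and 63.1 FPKM, while CCND2 and CDKN2A lie on the zero line in every group.

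Within families, the shares were narrow. CCND1 made up 86.4% ± 0.694 of the D cyclin FPKM (SD, n = 9), CCND3 13.6% ± 0.704 and CCND2 0.0437% ± 0.0305. CDK4 made up 87.1% ± 0.971 of the summed FPKM of CDK4 and CDK6. On counts that share was 51.2% ± 2.11, because the FPKM table divides CDK4 by 1865 bases and CDK6 by 12020 bases. CDKN2C accounted for 99.9% ± 0.0866 of the summed FPKM of CDKN2A and CDKN2C. That share leaves out CDKN2B, which was not analysed, and the INK4 gene CDKN2D, which is outside the genes followed. CDKN2D had 14.4 ± 1.31 CPM (the count scaled by the library total) over the 9 libraries, beside 48.8 ± 3.78 CPM for CDKN2C. The summed D cyclins amounted to 1.79 ± 0.106 times the summed kinases in FPKM, with group means of 1.80 in control, 1.85 at the lower dose and 1.73 at the higher dose. CDKN1B amounted to 0.370 ± 0.0250 times the summed kinases, with group means of 0.388 in control, 0.371 at the lower dose and 0.352 at the higher dose. Both ratios overlapped between all groups.

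The sequence around transcription starts was read for the genes with a start window and is printed for some of them. RefSeq (GRCh38.p14) gave windows of 300 bases, 250 before and 50 after an annotated start, for 8 of the 10 genes, in 14 windows. CCND1 and CCND2 had none, and the only window of RB1 (chr13:48476200-48476499) sits at an alternative start far inside the gene. Windows were searched on both strands for an E-box (CACGTG, the site of MYC), a FOXO site (GTAAACA), an E2F site (TTTNNCGC), an SP1 site (GGGCGG) and a cyclic AMP response element (TGACGTCA). Among 35116 RefSeq windows of the same length these letters occurred in 7.26%, 3.42%, 6.89%, 45.0% and 1.85%. Shown 5′ to 3′ on the gene's strand is first the start of CDK4 (chr12:57752261-57752560, minus strand), for the kinase that dominates in FPKM. Then come the start of CDKN1B (chr12:12717118-12717417, plus strand), for the FOXO-linked inhibitor, and a start of CDKN2C (chr1:50968456-50968755, plus strand), for the INK4 member with ample reads. Last are both starts of CDKN2A, that of ARF (chr9:21995275-21995574, minus strand) and that of p16 (chr9:21974808-21975107, minus strand), for the INK4 member with next to no reads. Capitals mark matches to any of the 5 motifs.
CDK4: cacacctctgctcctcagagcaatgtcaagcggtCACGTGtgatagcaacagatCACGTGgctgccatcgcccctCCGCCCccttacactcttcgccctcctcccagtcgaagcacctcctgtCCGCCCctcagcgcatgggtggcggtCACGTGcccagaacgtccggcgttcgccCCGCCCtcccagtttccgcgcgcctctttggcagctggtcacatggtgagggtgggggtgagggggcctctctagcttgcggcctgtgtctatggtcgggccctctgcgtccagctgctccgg
CDKN1B: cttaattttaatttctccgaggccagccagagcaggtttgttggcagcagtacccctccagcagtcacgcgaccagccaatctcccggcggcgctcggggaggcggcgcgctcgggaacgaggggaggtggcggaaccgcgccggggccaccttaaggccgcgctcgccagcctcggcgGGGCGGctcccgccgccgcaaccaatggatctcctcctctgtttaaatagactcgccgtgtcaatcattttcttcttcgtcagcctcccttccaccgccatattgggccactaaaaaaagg
CDKN2C: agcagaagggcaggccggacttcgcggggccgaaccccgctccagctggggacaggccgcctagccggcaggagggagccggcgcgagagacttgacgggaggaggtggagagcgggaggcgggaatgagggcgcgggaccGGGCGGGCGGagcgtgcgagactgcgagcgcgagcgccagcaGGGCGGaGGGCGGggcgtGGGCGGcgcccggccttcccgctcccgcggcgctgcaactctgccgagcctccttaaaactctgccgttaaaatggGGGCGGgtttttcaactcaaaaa
CDKN2A, ARF start: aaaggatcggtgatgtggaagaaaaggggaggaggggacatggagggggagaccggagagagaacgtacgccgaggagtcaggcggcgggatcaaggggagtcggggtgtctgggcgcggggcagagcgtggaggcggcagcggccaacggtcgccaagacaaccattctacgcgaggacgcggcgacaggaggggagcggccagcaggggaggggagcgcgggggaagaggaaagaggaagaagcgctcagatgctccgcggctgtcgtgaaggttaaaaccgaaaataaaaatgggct
CDKN2A, p16 start: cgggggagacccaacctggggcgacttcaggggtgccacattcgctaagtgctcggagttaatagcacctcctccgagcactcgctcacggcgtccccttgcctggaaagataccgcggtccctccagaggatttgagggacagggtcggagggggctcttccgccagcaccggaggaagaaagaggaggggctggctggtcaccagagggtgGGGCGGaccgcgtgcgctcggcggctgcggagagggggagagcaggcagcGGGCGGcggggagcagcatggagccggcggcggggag

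The CDK4 window held 3 E-boxes and 3 SP1 matches. The CDKN1B window held 1 SP1 match and none of the other 4 motifs. The CDKN2C window held 6 SP1 matches, 2 of them sharing bases, with 37 CpG dinucleotides and 71.3% G and C. The ARF window of CDKN2A held no match and 28 CpG dinucleotides, and the p16 window 2 SP1 matches and 26 CpG dinucleotides, so all 5 printed windows are rich in CpG whether or not reads were found. Among the windows not printed, the 3 of CCND3 held 1 FOXO match and 9 SP1 matches together, and the upstream start of CDK6 held 1 E-box and 3 SP1 matches. The other 2 windows of CDKN2C held 1 E-box each, and 1 of them also held 1 SP1 match. The CDKN2B window held 2 SP1 matches, while the downstream start of CDK6 and the RB1 window held no match. No E2F site and no cyclic AMP response element was found in the 14 windows. A match is only a run of letters and describes the sequence, not its use.

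Insulin was followed first in the D cyclins. CCND1 (chr11:69641087-69654474, plus strand, GENCODE release 29 on GRCh38) had 433, 442 and 379 CPM in control, 453, 459 and 430 CPM at the lower dose, and 452, 420 and 375 CPM at the higher dose. The groups overlapped, and the third library was the lowest in each. The lower dose differed from control by a log2 fold change of 0.11 ± 0.06 (SE), a fold of 1.08 with a 95% interval of 0.983 to 1.18 (edgeR quasi-likelihood test, Benjamini-Hochberg adjusted p = 0.808). The higher dose differed from control by -0.01 ± 0.06 (adjusted p = 1 in edgeR) and from the lower dose by -0.12 ± 0.06 (adjusted p = 0.852 in edgeR). The lowest libraries weigh on both values: the lower dose against control was 0.04 without the third control library, and the higher dose against the lower was -0.05 without the third higher-dose library. Of the exonic bases of CCND1, 10.3% overlap LTO1 on the opposite strand, and no source used here gives the strand setting of the counting. LTO1 itself had 12.0 ± 0.576 CPM over the 9 libraries.

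CCND3 (chr6:41934933-42050357, minus strand) had 46.8, 46.0 and 43.5 CPM in control, 52.4, 43.5 and 45.2 CPM at the lower dose, and 49.2, 45.7 and 42.4 CPM at the higher dose. The first library was the highest of each group and the groups overlapped. Its log2 fold change was 0.06 ± 0.08 for the lower dose against control, 0.01 ± 0.08 for the higher dose against control and -0.05 ± 0.08 between the doses, with adjusted p of 0.894, 1 and 0.949 in edgeR.

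CCND2 (chr12:4273772-4305350, plus strand), the D cyclin of normal granulosa cells in rodents, was at the edge of detection. It had 6, 6 and 0 counts in control, 6, 11 and 11 counts at the lower dose, and 2, 4 and 13 counts at the higher dose. It entered the test only through the 3 libraries with at least 10 counts, all of them from insulin-treated cells, so its difference was partly set by the filter. The fitted log2 fold change for the lower dose against control was 1.196 ± 0.693, with an interval from 0.839-fold to 6.25-fold (edgeR adjusted p = 0.808). Without the control library at 0 counts it was 0.60. The higher dose differed from control by 0.63 ± 0.75 (edgeR adjusted p = 1) and from the lower dose by -0.57 ± 0.63 (edgeR adjusted p = 0.925). That last value lay between -1.61 without the third higher-dose library and -0.16 without the first. Of its exonic bases, 13.8% also belong to another annotated gene on the same strand, AC008012.1.

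The kinases followed. CDK4 (chr12:57747727-57756013, minus strand) had 107, 98.7 and 101 CPM in control, 106, 109 and 109 CPM at the lower dose, and 118, 103 and 101 CPM at the higher dose. Lower-dose libraries exceeded control libraries in 8 of 9 pairs, but the groups overlapped. The log2 fold change was 0.09 ± 0.06 for the lower dose against control (edgeR adjusted p = 0.809), 0.06 ± 0.06 for the higher dose against control (edgeR adjusted p = 1) and -0.03 ± 0.06 between the doses (edgeR adjusted p = 0.964). The CDK4 transcripts share 43.2% of their exonic bases with TSPAN31 on the opposite strand, so without a known strand setting the reads of the pair cannot be told apart there. TSPAN31 had 22.9 ± 1.69 CPM.

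CDK6 (chr7:92604921-92836594, minus strand) had 97.2, 110 and 107 CPM in control, 94.5, 102 and 94.99 CPM at the lower dose, and 104, 96.3 and 101 CPM at the higher dose. The lower-dose libraries exceeded control libraries in 1 of 9 pairs. Its log2 fold change was -0.10 ± 0.05 for the lower dose against control (edgeR adjusted p = 0.808), -0.06 ± 0.05 for the higher dose against control (edgeR adjusted p = 1) and 0.03 ± 0.05 between the doses (edgeR adjusted p = 0.954). The fitted values of CDK4 and CDK6 against control thus had opposite signs at both doses, each within the spread between libraries.

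RB1 (chr13:48303726-48599436, plus strand) had the smallest unadjusted p of the members between the doses in the fit of all 9 libraries. CCND1 had a smaller one when library number was a block, without a count filter, without the third lower-dose library and without the first higher-dose library. CDKN1B had a smaller one without the second higher-dose library. RB1 had 69.8, 74.9 and 71.8 CPM in control, 67.9, 67.6 and 68.6 CPM at the lower dose, and 80.2, 75.0 and 69.5 CPM at the higher dose. The 3 lower-dose libraries lay close together and below every library of both other groups. The higher dose exceeded the lower dose in 9 of 9 pairs, by a log2 fold change of 0.13 ± 0.06, a fold of 1.09 with an interval of 1.00 to 1.18 (edgeR unadjusted p = 0.0394, adjusted p = 0.850). The lower dose differed from control by -0.08 ± 0.06 (edgeR adjusted p = 0.826) and the higher dose from control by 0.05 ± 0.06 (edgeR adjusted p = 1). Without the first higher-dose library the difference between the doses was 0.07. Separation of this kind was common: between the doses, 7.44% of all tested genes had every higher-dose library above every lower-dose library and 4.86% every one below, and 6.51% of genes had every lower-dose library below every control library.

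**Figure D2:**
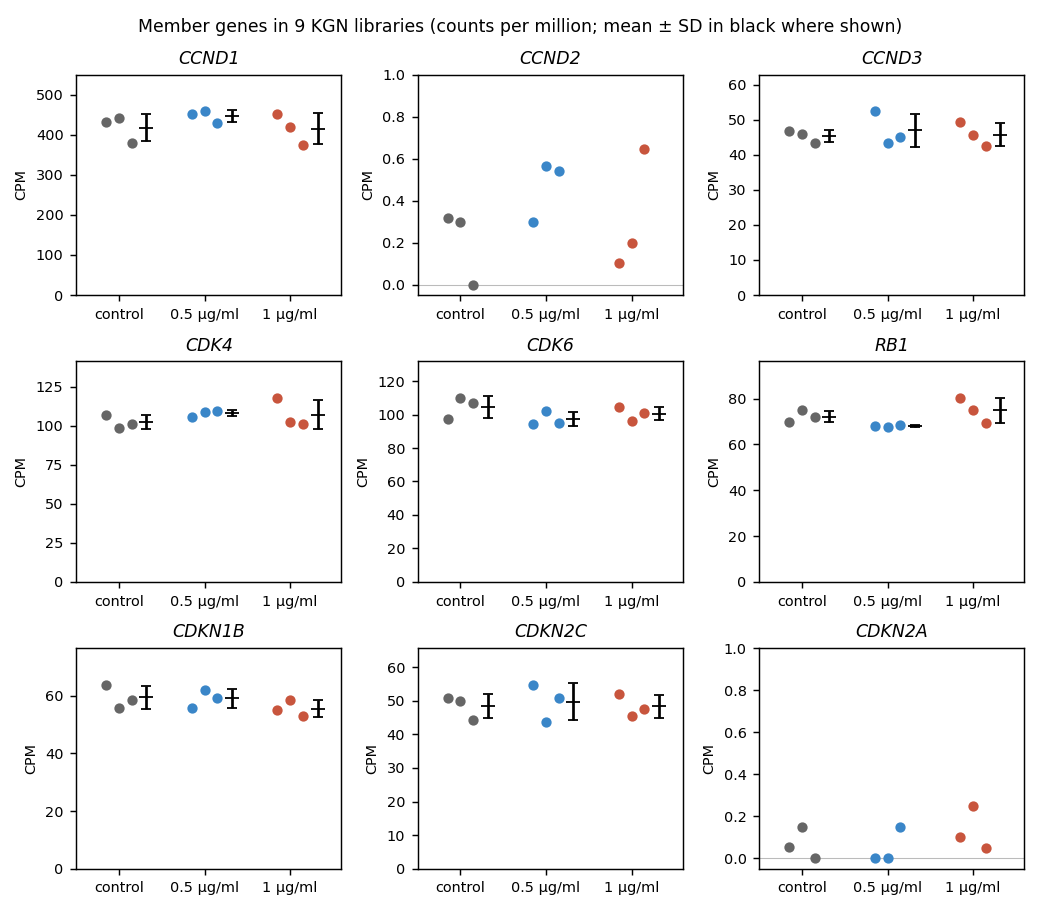
CPM of the 9 analysed genes in each library, with the mean and SD of each group in black except for CCND2 and CDKN2A; every axis starts at or just below 0. Groups overlap in all panels except RB1, where the 3 lower-dose libraries lie between 67.6 and 68.6 CPM, below both other groups.

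The inhibitor CDKN1B (chr12:12715058-12722371, plus strand) had 63.8, 55.9 and 58.6 CPM in control, 55.8, 62.2 and 59.3 CPM at the lower dose, and 55.2, 58.7 and 52.9 CPM at the higher dose. The groups overlapped. Group means were 59.4 ± 3.997 CPM in control, 59.1 ± 3.20 CPM at the lower dose and 55.6 ± 2.92 CPM at the higher dose (SD, n = 3 each). The higher dose differed from control by -0.10 ± 0.06, a fold of 0.933 with an interval of 0.850 to 1.02 (edgeR adjusted p = 1), and from the lower dose by -0.10 ± 0.06 (edgeR adjusted p = 0.856). The lower dose differed from control by 0.0021 ± 0.064 (edgeR adjusted p = 0.997).

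Among the INK4 genes, CDKN2C (chr1:50960745-50974633, plus strand) had 50.8, 49.9 and 44.3 CPM in control, 54.7, 43.7 and 50.7 CPM at the lower dose, and 52.1, 45.5 and 47.5 CPM at the higher dose. The groups overlapped, and the first library was the highest in each. Its log2 fold change was 0.05 ± 0.08 for the lower dose against control, -0.0037 ± 0.081 for the higher dose against control and -0.05 ± 0.08 between the doses, with adjusted p of 0.924, 1 and 0.950 in edgeR. CDKN2A (chr9:21967753-21995301, minus strand) had 1, 3 and 0 counts in control, 0, 0 and 3 counts at the lower dose, and 2, 5 and 1 counts at the higher dose. Its 15 counts in 9 libraries are too few for a fold, and counts per gene do not separate p16 from ARF. CDKN2B lies beside it at chr9:22002903-22009363.

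None of the 8 tested members was called in any comparison at an adjusted p under 0.05 (edgeR quasi-likelihood test). The background was equally empty, with 0% of 12665 genes called for the lower dose against control, for the higher dose against control, between the doses and over the 3 groups. At an unadjusted p under 0.05, 0 of 8 members passed for the lower dose against control, where 6.08% of all genes did (770 genes, and 573 in DESeq2). The DESeq2 counts in this paragraph come from a run without a count filter, over 15981 genes. For the higher dose against control 0 of 8 passed, against 2.35% of all genes (298 genes, and 173 in DESeq2). Between the doses 1 of 8 passed, RB1, against 5.64% of all genes (714 genes, and 487 in DESeq2), and over the 3 groups 0 of 8, against 4.43% (561 genes, and 381 in DESeq2). One gene in 8 is near the background share and is no result about the set.

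Groups were free of overlap for RB1 alone, below control at the lower dose and above the lower dose at the higher dose. In the remaining directions 0 of 8 members were separated, where 4.18% of genes lay wholly above control at the lower dose, 4.26% wholly above control at the higher dose and 3.60% wholly below it. Fitted values for the lower dose against control were above 0 for 6 of 8 members, with a median log2 fold change of 0.06, beside 0.0045 over all genes, of which 51.9% were above 0. For the higher dose against control 4 of 8 were above 0 with a median of 0.0017, beside 49.85% of all genes above 0. Between the doses 2 of 8 were above 0 with a median of -0.05, beside 49.51% of all genes. CCND2 is included in these counts and medians, although its difference from control was partly set by the filter. It lay above 0 at both doses against control and below 0 between the doses. These 3 comparisons share libraries and are not independent of each other.

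How large a change could have been missed is given by the intervals, as far as the spread between these libraries allows. That spread may be no more than technical, so the intervals may be too narrow for separate cultures. For the 7 tested members other than CCND2, SEs ran from 0.054 to 0.081 on the log2 scale. All 21 of their 95% intervals lay between 0.840-fold, reached by CCND1, and 1.18-fold, reached by RB1, both for the higher dose against the lower. Since these are bulk samples, fewer cells in a phase and less RNA per cell cannot be told apart, and opposite movements in different cells would not show.

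**Figure D3:**
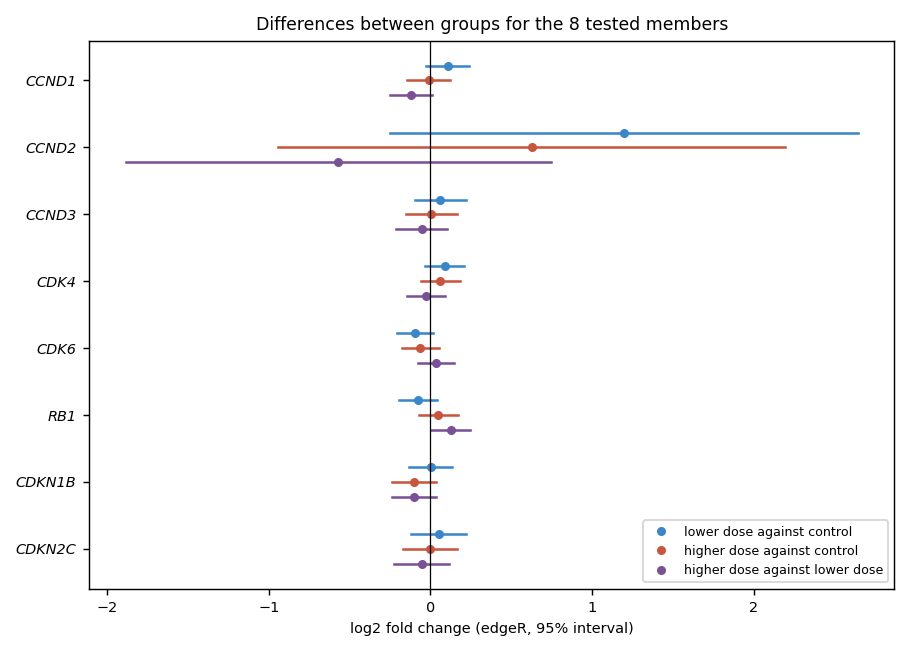
Fitted log2 fold changes with 95% intervals (edgeR) of the 8 tested genes in the 3 comparisons. The intervals include 0 for every gene and comparison except RB1 between the doses (0.13 ± 0.06), and those of CCND2 are far wider than the rest.

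The partners of this circuit were read from 5 companion lists, in which 0 genes were called in any comparison between groups (edgeR, adjusted p under 0.05). In the cyclin E step and CDK activation, 9 genes were tested, of which 4 lay above 0 for the lower dose against control (median log2 fold change -0.0042) and 4 for the higher dose (median -0.0032). CKS1B, a cofactor of the ubiquitin ligase that removes p27, had 86.8 ± 6.17 CPM in control, 91.3 ± 2.07 CPM at the lower dose and 84.1 ± 7.47 CPM at the higher dose (SD, n = 3 each). CCNH, CDK7 and MNAT1 together form the kinase that activates CDKs. CCNH had 72.1 ± 2.27, 75.8 ± 5.30 and 77.1 ± 1.87 CPM in that order of dose, while CDK7 had 32.01 ± 2.69, 31.7 ± 3.79 and 29.5 ± 1.04 CPM. MNAT1 had 15.2 ± 0.155, 15.6 ± 0.630 and 16.6 ± 1.39 CPM.

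Of the other CDK inhibitors, CDKN1A (p21, a target of p53) was by far the most abundant, with 787 ± 58.6 CPM in control, 805 ± 153 CPM at the lower dose and 761 ± 78.4 CPM at the higher dose. CDKN2D, which encodes the INK4 protein p19, had 13.7 ± 1.60, 14.97 ± 1.11 and 14.6 ± 1.36 CPM, and CDKN1C (p57) had 0.437, 0.416 and 0.531 CPM on average. CDKN3, a phosphatase that acts on CDKs, had 34.9 ± 3.43, 34.3 ± 1.96 and 33.1 ± 3.44 CPM. For the lower dose and for the higher dose against control, 2 of the 4 lay above 0.

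Of 12 pocket protein and E2F genes, 7 lay above 0 at each dose against control, with medians of 0.02 and 0.02. E2F8, a repressive E2F, had 4.13 ± 0.483 CPM in control, 5.27 ± 0.863 CPM at the lower dose and 5.04 ± 0.438 CPM at the higher dose. Its log2 fold change for the lower dose against control was 0.36 ± 0.16 (edgeR unadjusted p = 0.0411, adjusted p = 0.792). In that comparison 1 of the 12 genes had an unadjusted p under 0.05 in edgeR, beside 6.08% of all tested genes. TFDP1, the dimer partner of E2Fs, had 148 ± 8.40, 152 ± 10.9 and 161 ± 10.3 CPM, and its paralog TFDP2 had 60.8 ± 1.10, 58.5 ± 2.35 and 63.4 ± 2.29 CPM. E2F6, a repressor, had 15.9 ± 0.919, 14.4 ± 1.05 and 15.97 ± 0.749 CPM. Among 11 genes of D cyclin turnover and induction, 7 lay above 0 at each dose. FBXW7, which directs cyclin E to degradation, had 19.2 ± 1.71, 20.5 ± 2.15 and 21.6 ± 1.96 CPM. FBXO4, a ubiquitin ligase subunit reported to act on cyclin D1, had 7.12 ± 0.480, 7.16 ± 0.850 and 8.04 ± 0.919 CPM. GSK3B, the kinase that marks cyclin D1 for export and degradation, had 104 ± 6.69, 98.2 ± 4.29 and 101 ± 1.60 CPM. AMBRA1, an adaptor that targets D cyclins for degradation, had 36.7 ± 2.89, 37.7 ± 1.89 and 35.7 ± 0.943 CPM.

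The replication genes driven by E2F are the circuit's output. Of 20 such genes, 18 lay above 0 for the lower dose against control, with a median log2 fold change of 0.06, and 18 for the higher dose against control, with a median of 0.05. Over all tested genes 51.9% and 49.85% lay above 0, and the medians were 0.0045 and -0.0002. Between the doses 10 of the 20 lay above 0 and 10 below, with a median of -0.0032. The gene with the smallest p of the list was MCM6, a subunit of the replicative helicase, which had 34.7 ± 2.88 CPM in control, 34.5 ± 2.29 CPM at the lower dose and 39.7 ± 2.26 CPM at the higher dose. For the higher dose against control its log2 fold change was 0.19 ± 0.07 (edgeR unadjusted p = 0.018, adjusted p = 1). In that comparison 1 of the 20 genes had an unadjusted p under 0.05 in edgeR, beside 2.35% of all tested genes. PCNA, the sliding clamp, had 97.4 ± 5.81 CPM in control, 104 ± 3.34 CPM at the lower dose and 99.6 ± 7.01 CPM at the higher dose. The comparisons of either dose against control share the control libraries, and genes of this list varied together between libraries of 1 group, as described next.

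Library number, which the titles give as 1, 2 and 3 in each group, went with several of these genes, a pattern examined after the values had been seen. What the number stands for is not stated. In an edgeR quasi-likelihood test of the number, with the groups in the model, 3 of 8 members had an unadjusted p under 0.05 and 0 were called, where 9.34% of all tested genes had an unadjusted p under 0.05 and 0.189% were called. CCND1 averaged 446, 440 and 394 CPM in libraries numbered 1, 2 and 3 (unadjusted p = 0.00123, adjusted p = 0.148 in edgeR). CCND3 averaged 49.5, 45.1 and 43.7 CPM (adjusted p = 0.444 in edgeR) and CDKN2C 52.5, 46.4 and 47.5 CPM (adjusted p = 0.492 in edgeR). The other tested members had an unadjusted p between 0.142 and 0.736.

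Of the 20 E2F target genes, which vary together, 16 had an unadjusted p under 0.05 and 2 were called, and all 20 had their highest mean in libraries numbered 1. UHRF1, which keeps DNA methylation through replication, averaged 40.1, 29.9 and 30.4 CPM (edgeR adjusted p = 0.0137), and MCM7 averaged 96.9, 82.1 and 82.5 CPM (edgeR adjusted p = 0.0323). For 11 of the 20 the first library was the highest in every group. The mean of the 20 genes' log2 CPM, each taken as the difference from its own mean, was 0.11, -0.10 and -0.14 in the control libraries. It was 0.13, -0.02 and -0.04 at the lower dose and 0.17, -0.02 and -0.08 at the higher dose. CDKN1A ran the other way, at 720, 827 and 814 CPM in control, 629, 891 and 896 CPM at the lower dose, and 670, 809 and 803 CPM at the higher dose (edgeR test of the number, adjusted p = 0.0153). Within every group the first library was thus the highest in the mean of the replication genes, in CCND3 and in CDKN2C, and the lowest in CDKN1A. Some markers of cell identity went with the number as well. In the edgeR test of the number, 3 of 6 granulosa markers and 1 of 4 epithelial markers had an unadjusted p under 0.05. The same held for 0 of 1 blood and immune marker and 0 of 2 endothelial markers, and 0 of these markers were called. FSHR, the receptor for follicle-stimulating hormone, was lowest in the first library of every group, at 15.2 CPM in control, 15.9 CPM at the lower dose and 17.7 CPM at the higher dose. KRT18 was highest there, at 1831, 1850 and 1883 CPM in that order of dose. FOXL2 kept no such order, since its first library was the lowest in control and at the higher dose but the highest at the lower dose. The part that library number has in the differences between doses was not tested beyond the model that carries it as a block, in which no member was called.

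**Figure D4:**
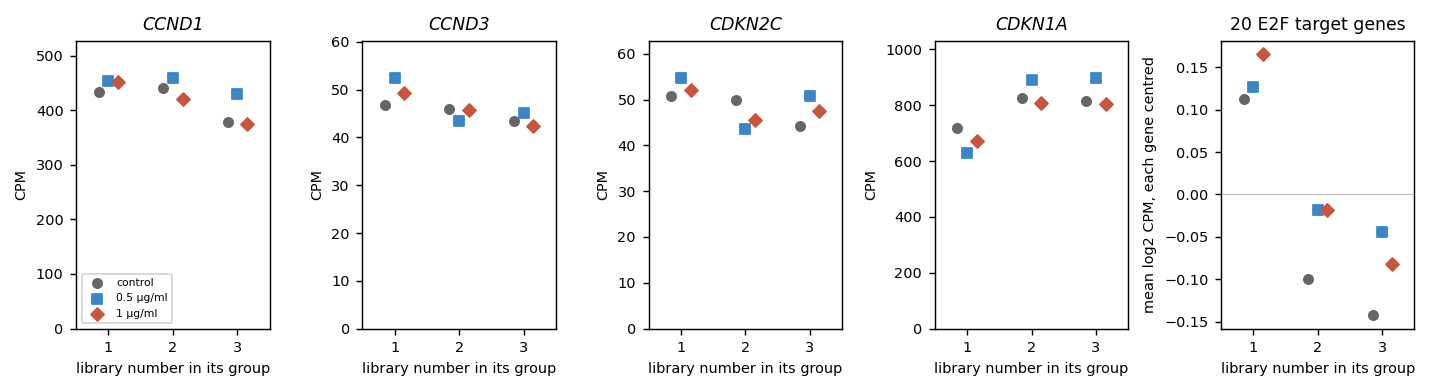
CPM of CCND1, CCND3, CDKN2C and CDKN1A, and the mean log2 CPM difference of 20 E2F target genes from their own means, against the library number in its group, with the groups marked by shape and colour. Library 1 is the lowest of its group for CDKN1A and the highest for CCND3, CDKN2C and the E2F targets, and library 3 is the lowest for CCND1.

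Members differed in how they varied across libraries. Over the 28 pairs of tested members, Pearson's r of log2 CPM over the 9 libraries ran from -0.56 (CCND2 with RB1) to 0.83 (CCND3 with CDKN2C), with a median of 0.09. Without CCND2, which rests on 0 to 13 counts, the 21 pairs ran from -0.38 (CDKN1B with RB1) to 0.83, with a median of 0.18. These r describe 9 libraries that share groups and numbers and carry no test. Among 9491 genes with at least 10 CPM on average, those most like CCND1 over the 9 libraries were TUBB4B (r = 0.97), a tubulin at 498 CPM, TRIB3 (r = 0.97), a pseudokinase at 104 CPM, and ITGB3 (r = 0.97), an integrin subunit at 17.1 CPM. Those most like CDKN2C were MRPS12 (r = 0.96), a mitochondrial ribosomal protein gene, RGL2 (r = 0.93), a Ral exchange factor gene, and NOLC1 (r = 0.91), a nucleolar protein gene.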

How the data were processed

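RNA-seq of KGN cells was analysed in 9 libraries of 3 groups, assigned by the labels' treatment. The authors deposited raw read counts per gene symbol and FPKM values. Per the submitters' processing notes, the tools were Trimmomatic, HTSeq and DESeq (no versions) and the build hg38. The aligner, annotation and strand setting were not given in the sources used here. FPKM as deposited equals the counts divided by depth and whole gene lengths, for 11053 of 11053 genes with at least 50 counts, within 0.001 of a whole number, and served only to compare levels between genes.

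Counts were filtered with filterByExpr (minimum count 10, minimum total 15), which kept 12665 of 15983 genes, scaled by TMM and fitted over all 9 libraries with edgeR 4.0.16 in R 4.3.3. Two-sided quasi-likelihood p-values were Benjamini-Hochberg adjusted over all tested genes and called under 0.05. SE is the absolute log2 fold change over the square root of F, and intervals are 95%. CPM divides by library totals of 18965722 to 20446405 counts. Between replicates, chi-square over its degrees of freedom was 2.17 to 8.19, so no pair was treated as a duplicate. The scripts were tested on simulated data. Alternatives were DESeq2 1.42.0, other scalings and filters, models of the 2 groups compared, a block for replicate number, and each library left out. All 10 members are named, and in each companion list up to 4 genes of smallest p over the 3 groups, of which 1 is not reported here. Members and lists were chosen with earlier results of these data known. Positions are from GENCODE release 29 and start windows from RefSeq.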

Additional observations from a re-analysis of the deposited data

How the results depend on the processing

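In every alternative run, 0 members were called in any comparison, and with the library numbers as a replicate block the fitted log2 fold change of CCND2 for the lower dose against control was 1.19, that of RB1 between the doses 0.12 (edgeR adjusted p = 0.703), and that of CCND1 for the lower dose against control 0.11 (edgeR unadjusted p = 0.0222, adjusted p = 0.592). CCND1 between the doses was then -0.12 (edgeR unadjusted p = 0.0126, adjusted p = 0.686). With the block, 2 of 8 members and 891 of 12665 genes had an unadjusted p under 0.05 between the doses in edgeR. Without it, 1 of 8 members and 714 genes did. For the lower dose against control, these were 1 of 8 members and 971 genes with the block, and 0 of 8 members and 770 genes without it. The replicate block changed no call. Deviations of same-numbered libraries correlated between -0.01 and 0.16 over 9 pairs, 1 of them over 0.1. Those of differently numbered libraries correlated between -0.11 and 0.06 over 18 pairs, 0 of them over 0.1. Pairing was to be used only if every same-numbered pair was over 0.1, so the libraries were not treated as paired. That rule cannot exclude a pairing, and what the numbers stand for is not stated. Counts over all genes depended on the filter: without a count filter edgeR called 6 genes for the lower dose against control, 3 for the higher dose against control, 4 between the doses and 8 over the 3 groups, where the filtered table gave 0. DESeq2 without a count filter, a change of tool and filter together, called 1 over the 3 groups. None of these was a member. With one library left out at a time, the called genes numbered 0 to 1 for the lower dose against control, 0 to 2 between the doses and 0 to 3 over the 3 groups. Of 379 alternative values for 24 fitted differences, 25 had the other sign, on 12 of the differences. With library totals only, these were CDKN1B for the lower dose against control (-0.0077) and CDKN2C for the higher dose against control (0.00016). The rest came from leaving out a library, with log2 ranges for the lower dose against control of -0.028 to 0.12 in CCND3, -0.041 to 0.058 in CDKN1B and -0.026 to 0.14 in CDKN2C. For the higher dose against control they were -0.079 to 0.058 in CCND1, -0.41 to 1.06 in CCND2, -0.048 to 0.059 in CCND3, -0.010 to 0.10 in CDK4, -0.066 to 0.039 in CDKN2C and -0.0015 to 0.10 in RB1. Between the doses they were -0.11 to 0.035 in CCND3, -0.098 to 0.015 in CDK4 and -0.14 to 0.023 in CDKN2C. The cause of these changes was not tested. CCND2 gave no value with at least 1 CPM in 3 libraries, nor against control with the 2 groups alone, since it was filtered out. With 3 libraries a group, the spread between libraries sets the intervals of the well-covered members, while for CCND2 and CDKN2A the few counts limit what can be seen.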
